A study of Mus musculus with 15 samples.

Results

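The comparison between lungs ventilated with H2S and lungs ventilated with plain synthetic air asks what the gas adds to ventilation at the same settings. It sets 10 of 15 arrays against each other, 5 per group and 1 array per mouse, and on the 21780 of 28361 transcript clusters (the groups of probes that stand for a transcript) to which exactly 1 gene symbol is assigned. All mice were male C57BL/6N animals of 24 to 26 g. Every group, controls included, was anesthetized with ketamine and acepromazine and received an arterial line and a tracheal tube. Air-ventilated mice received synthetic air from the ventilator over 6 h, with 12 ml/kg as tidal volume and 2 cmH2O of positive end-expiratory pressure, and H2S-ventilated mice were treated in the same way with 80 ppm H2S in that air. The 5 controls were left to breathe synthetic air on their own over the same time and serve here as the background level and, in the fit, add to the estimate of the spread between mice. RNA came from the inferior right lung lobe, a bulk tissue in which lung cell types are mixed. Bronchoalveolar lavage fluid, a wash of the airspaces, was collected at sacrifice, so that cells removed with it may be missing from the lobe. The labels do not say whether the mice of a group came from separate litters or were treated on separate days, so that p-values measure the spread between these mice.

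H2S is a toxic gas that cells also make in small amounts, and it blocks cytochrome c oxidase, the last complex of the respiratory chain, when its level is high. Cells exposed to chemical stress switch on several programs within minutes to hours. Immediate early genes encode transcription factors that need no new protein for their induction, heat shock genes encode chaperones that bind unfolded proteins and are controlled by heat shock factor 1, and the Nrf2 and Atf4 programs restore thiols and amino acids. Mechanical stretch of the lung is itself known to induce immediate early genes and inflammatory mediators, so that the reference in this comparison is the air-ventilated group.

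Intensities were compared as log2 values with limma, and differences are given as log2 H2S minus air with their standard error (SE) and a Benjamini-Hochberg adjusted p over all 28361 clusters. A cluster was called at the study's thresholds, which ask for a fold of 1.7 or more together with a p of 0.005 or less before and 0.1 or less after adjustment. In total, 14 clusters of 13 genes were called and all 14 were higher with H2S, which is 0.0643% of the clusters tested. With the adjusted p kept under 0.05 and the fold left free, 15 clusters were higher (0.0689%) and 2 were lower (0.00918%). No cluster was called lower by limma, with 595 lower at an unadjusted p under 0.05, while CyberT, the regularized test of the study, called 38 higher and 2 lower. For 21257 clusters (97.6%) the 95% interval of the difference lay within a fold of 1.7 in either direction, and the median difference over all clusters was -0.0063. The fit took its estimate of spread from all 15 arrays, and with the 10 ventilated arrays alone 10 clusters were called, without Rgs1, Chac1, Alpl and Osgin1. The counts also depended on single mice. Without the air-ventilated mouse labelled 11_6 the number called was 31 and that at an adjusted p under 0.05 was 36, leaving out the H2S-ventilated mouse labelled 15_20 gave 23 and 28, and leaving out the air-ventilated mouse labelled 12_10 gave 10 and 11.

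The arrays resembled each other closely. The median intensity of an array lay between 179.08 and 187.45, and within a group arrays correlated across clusters, which are not independent replicates, at 0.984 to 0.994. Markers of the labelled tissue were bright in both ventilated groups. Sftpc, the surfactant protein C gene of alveolar type II cells, differed by -0.01 with a 95% interval of -0.13 to 0.11, and Ager, a marker of alveolar type I cells, by -0.04 with an interval of -0.20 to 0.13. Each mouse label ends in a number that no source explains, from 1 to 12 in 3 mice per group and from 20 to 28 in the other 2. These sets of mice were separated by the first principal component of the values after removal of the group means, which held 26.1% of the variance. In the following, intensities are listed in the order of that number, so that the last 2 values of each group belong to the mice numbered 20 to 28.

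The stress-inducible transcription factor Atf3 was among the genes that differed most. Its intensity was 1759, 1747, 1265, 2527 and 1819 in the H2S-ventilated mice, 433, 595, 425, 515 and 348 in the air-ventilated mice and 432, 401, 434, 537 and 479 in the controls. The lowest H2S-ventilated mouse was thus well above the highest of all other mice, and air and control values overlapped. The difference between H2S and air was 1.97 (SE 0.16, adjusted p = 2.98e-05), a fold of 3.91. Growth arrest genes moved in the same direction. Plk3, a Polo-like kinase that acts in the response to stress and DNA damage, stood at 981, 1169, 897, 1026 and 1191 with H2S and at 482, 542, 428, 424 and 489 with air, with a difference of 1.15 (SE 0.10, adjusted p = 7e-05). Gadd45a, which encodes a small protein that arrests growth after DNA damage, reached 521, 494, 445, 526 and 656 with H2S against 285, 269.6, 243, 256 and 308 with air, a difference of 0.95 (SE 0.093, adjusted p = 0.000165). Neither gene overlapped between the groups. Both were also higher in air-ventilated mice than in controls, by 0.49 (adjusted p = 0.0148) for Plk3 and by 0.36 (adjusted p = 0.0426) for Gadd45a, while the value of Atf3 in that comparison was 0.0047 (adjusted p = 0.998). Of the 17 measured genes in a list of Polo-like kinases, Gadd45 proteins and related growth arrest genes, 2 were higher at an adjusted p under 0.05. At an unadjusted p under 0.05, a threshold that 3.23% of clusters passed as higher and 2.73% as lower, 7 were higher and 0 lower, among them Sesn2, a sestrin that restrains growth signals under stress, at 0.36 (unadjusted p = 0.00195, adjusted p = 0.33) and Plk2, a related kinase, at 0.45 (unadjusted p = 0.0185, adjusted p = 0.671). The same unadjusted threshold underlies the counts of list members that follow, unless an adjusted p is named.

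**Figure D1:**
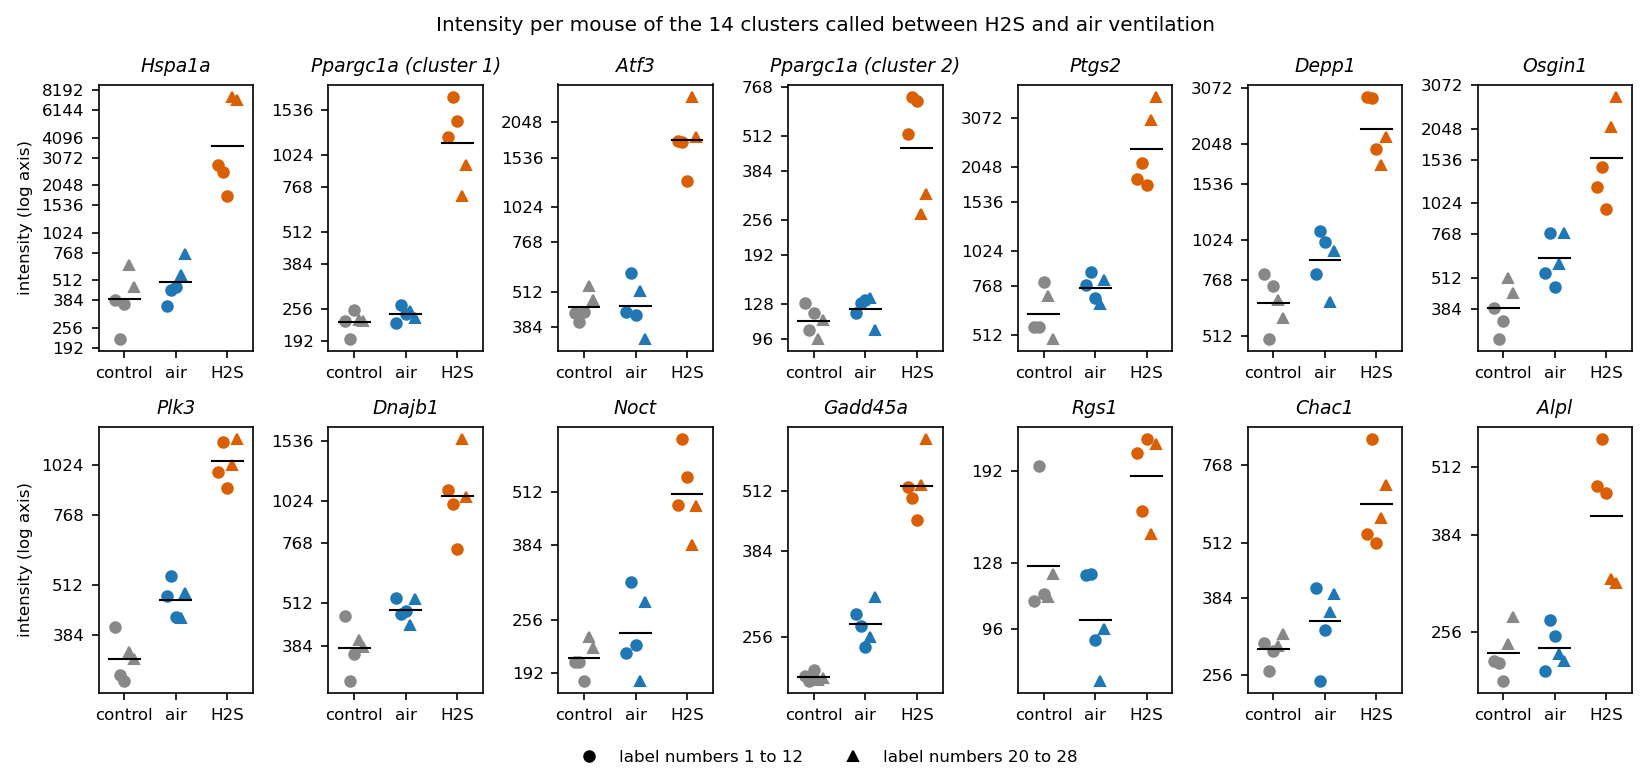
Intensity on a log axis of the 14 clusters called between H2S and air ventilation, in control, air-ventilated and H2S-ventilated mice (5 each). Each point is 1 mouse, circles are mice numbered 1 to 12 and triangles mice numbered 20 to 28, and lines are means of log2 values. In every panel the 5 H2S-ventilated mice lie above the 5 air-ventilated mice. The triangles are the highest H2S values for Hspa1a, Ptgs2, Atf3, Osgin1 and Gadd45a and the lowest for Ppargc1a, Alpl and Noct.

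Chac1, an enzyme that breaks down glutathione and is a target of Atf4, was called as well. Its intensity was 537, 884, 511, 583 and 693 with H2S and 405, 248, 325, 356 and 392 with air, which did not overlap, and the difference was 0.88 (SE 0.15, adjusted p = 0.0317). The call was kept in 12 of 15 fits that each left out 1 mouse. In the list of Atf4 and the integrated stress response, 8 of 19 genes were higher at an unadjusted p under 0.05 and 0 were lower. Besides Chac1 they included Atf4 itself, the central transcription factor of the response, at 0.34 (unadjusted p = 0.00045, adjusted p = 0.18), the pseudokinase gene Trib3 at 0.31 (unadjusted p = 0.00137, adjusted p = 0.277) and Cebpb, a transcription factor of the acute phase, at 0.37 (unadjusted p = 0.00258, adjusted p = 0.361). A list of endoplasmic reticulum chaperones and related genes such as Xbp1 and Herpud1, which the unfolded protein response induces, had a median difference of 0.03. Of its 17 members 1 was higher at this threshold, Herpud1 at 0.19 (unadjusted p = 0.0389, adjusted p = 0.83), which is not a chaperone.

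Hspa1a, the inducible cytosolic HSP70 chaperone, had the largest difference of all clusters with 1 symbol. Its intensity was 2742, 2479, 1743, 7462 and 7097 with H2S, 353, 445, 466, 553 and 755 with air and 387, 217, 365, 639.6 and 466 in controls, and the difference between H2S and air was 2.86 (SE 0.38, adjusted p = 0.00328), a fold of 7.29. The mice numbered 20 to 28 were the highest of the H2S group, and the lowest H2S-ventilated mouse was above every air-ventilated mouse. Hspa1a has a near-identical copy in the genome, so that signal from both cannot be told apart, and a further called cluster is listed for several HSP70 genes and is not counted here. Dnajb1, an HSP40 cochaperone that works with HSP70, stood at 1099.9, 1004, 739.5, 1559 and 1053 with H2S and 531, 475, 485, 441 and 526 with air, with a difference of 1.11 (SE 0.15, adjusted p = 0.00584). Its groups did not overlap either. Hsph1, an HSP110 protein that recharges HSP70 with nucleotide, was at 567, 541, 508, 1262 and 1066 against 426, 349, 375, 422 and 441 and did not pass the adjusted test at 0.87 (unadjusted p = 0.00185, adjusted p = 0.319). Hspb1, a small heat shock protein, was at 0.79 (unadjusted p = 0.00215, adjusted p = 0.345). The list of cytosolic chaperones also held the mitochondrial Hspd1 and Hspe1, the endoplasmic reticulum protein Serpinh1 and the transcription factor gene Hsf2. Of its 25 measured genes, 9 were higher at an unadjusted p under 0.05, 0 were lower and 16 did not pass. The median of the list was 0.14. Members that did not pass included the constitutive chaperone Hspa8 at 0.06 (95% interval -0.09 to 0.21). Of the whole list, 3 genes had all 5 H2S-ventilated mice above all 5 air-ventilated mice, which held for 0.744% of all clusters.

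The promoters of these chaperones are shown because heat shock factor 1 binds to inverted repeats of the unit GAA. Windows from 250 bases before to 50 bases after each RefSeq gene start (GRCm38.p6) were searched on both strands for GAANNTTC, in which N is any base, and 7.86% of all 32851 windows held it. Counted by gene, 12 of 22 members of the chaperone list with a window had at least 1 match (54.5%), against 9.04% of all 27025 genes. Among the 8 list members higher at an unadjusted p under 0.05 that have a window 6 had a match, and among the 14 others 6 had one. The longer form of the motif with 3 units, which overlaps the shorter one, was found in 5 of the 22 genes and 0.662% of all genes. Windows of Hspd1 and Hspe1 overlap on opposite strands, so that the same letters count for both genes. In Bag3, Hsph1 and Hspb8 the matches to these motifs begin after the gene start. Of the 12 called genes with a window, 2 held GAANNTTC, Hspa1a and Depp1. Bases 160 to 61 before the start are printed below 5′ to 3′ on the strand of the gene, with the letters of the match in capitals, for Hspa1a at chr17:34972217-34972316 (minus strand), Hspb1 at chr5:135887759-135887858 (plus strand) and Depp1 at chr6:116650524-116650623 (plus strand).
Hspa1a: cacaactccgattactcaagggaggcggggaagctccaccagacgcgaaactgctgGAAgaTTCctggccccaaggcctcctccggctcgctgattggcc
Hspb1: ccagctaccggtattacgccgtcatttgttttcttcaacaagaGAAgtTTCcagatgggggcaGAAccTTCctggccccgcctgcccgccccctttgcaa
Depp1: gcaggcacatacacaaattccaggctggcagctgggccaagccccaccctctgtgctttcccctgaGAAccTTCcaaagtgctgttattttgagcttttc
The match begins 104 bases before the start in Hspa1a, 117 and 97 bases before it in Hspb1 and 94 bases before it in Depp1. The windows of Dnajb1 held no match to GAANNTTC and 1 to TGACNNNGC, the core of the antioxidant response element, which 12.4% of windows held. The cyclic AMP response element TGACGTCA, to which proteins of the Atf family can bind, was in 0 of the windows of called genes and in 1.79% of all windows. A match describes these letters only and does not show that a factor was bound.

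Ppargc1a, which encodes PGC-1alpha, a coactivator that drives the making of mitochondria, was called through 2 clusters. The brighter one stood at 1199, 1731, 1389.8, 708 and 934 with H2S and at 225, 266, 245, 252 and 235 with air, and controls were at 229, 194, 252, 231 and 229. Air and control values overlapped, whereas all H2S values were above them, and the difference from air was 2.22 (SE 0.17, adjusted p = 2.8e-05), a fold of 4.66. The dimmer cluster gave 1.92 (SE 0.22, adjusted p = 0.000807). The other members of a list of PGC-1 coactivators and mitochondrial biogenesis factors did not follow. Of 16 genes, 1 passed at an adjusted p under 0.05 and 2 at an unadjusted p under 0.05, the second being the related coactivator Pprc1 at 0.37 (unadjusted p = 0.0271, adjusted p = 0.738). The median of the list was 0.00055, and Tfam, the factor that transcribes and packs mitochondrial DNA, was at 0.01 (95% interval -0.21 to 0.23). Among 22 subunits of the respiratory chain 0 were higher and 0 lower in limma at an unadjusted p under 0.05, with values from -0.10 to 0.14. The enzymes that make or oxidize sulfide gave the same counts over 10 genes. Sqor, the mitochondrial quinone oxidoreductase that takes up sulfide, differed by -0.0022 with an interval of -0.18 to 0.17, and Cth, an enzyme that makes H2S from cysteine, by 0.05 with an interval of -0.18 to 0.28. All 22 and all 10 intervals lay within a fold of 1.7.

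Further genes of metabolism were higher with H2S. Depp1, a target of FoxO transcription factors, stood at 2895, 2863, 1979, 1760.0 and 2163 with H2S and at 803, 1092, 1008, 654 and 949 with air, without overlap, a difference of 1.37 (SE 0.17, adjusted p = 0.00181). In a list of 19 genes of FoxO factors and autophagy Depp1 was the member that was higher, 1 was lower, Txnip, an inhibitor of thioredoxin, at -0.15 (unadjusted p = 0.0437, adjusted p = 0.85), and the median was 0.05. Noct, a rhythmically expressed phosphatase, was at 476, 684, 556, 384 and 475 against 214, 313, 223, 183 and 281, a difference of 1.08 (SE 0.15, adjusted p = 0.00635). Alpl, the tissue-nonspecific alkaline phosphatase, was at 472, 576, 458, 320.1 and 315 against 218, 269.6, 252, 233 and 227. Its groups did not overlap, the difference was 0.80 (SE 0.14, adjusted p = 0.0542), and it was called in 8 of the 15 fits without 1 mouse. Pparg, a nuclear receptor of lipid metabolism and a partner of PGC-1alpha, passed at an adjusted p under 0.05 below the fold minimum, with 927, 939.5, 847, 932 and 956 against 693, 734, 675, 675 and 731 and a difference of 0.39 (SE 0.066, adjusted p = 0.0317). Pparg stayed under an adjusted p of 0.05 in 4 of the 15 fits without 1 mouse, with values up to 0.126. Among 16 targets of PPAR receptors that act in fatty acid use, 1 was higher at an unadjusted p under 0.05, the lipid droplet protein gene Plin2 at 0.27 (unadjusted p = 0.0103, adjusted p = 0.586).

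Ptgs2 encodes cyclooxygenase 2, the inducible enzyme of prostaglandin synthesis. Its intensity was 1858, 2111, 1769, 3009 and 3649 in H2S-ventilated mice, 772, 860.4, 695, 664 and 806 in air-ventilated mice and 549, 549.7, 793, 709 and 495 in controls. The H2S values lay above all others, highest in the mice numbered 20 to 28, and the difference from air was 1.65 (SE 0.18, adjusted p = 0.000638), a fold of 3.15. Of 17 genes of prostaglandin synthesis and prostaglandin receptors, 2 were higher at an unadjusted p under 0.05, the other being the receptor gene Ptger4 at 0.21 (unadjusted p = 0.0264, adjusted p = 0.737). Osgin1, a growth inhibitor induced by oxidative stress and a target of Nrf2, stood at 1186, 1429, 971, 2078 and 2752 with H2S and 537, 777, 473, 586 and 778 with air. The groups did not overlap, the difference was 1.34 (SE 0.25, adjusted p = 0.0564), and it was called in 10 of the 15 fits without 1 mouse. Rgs1, which limits the signals of G protein-coupled receptors in leukocytes, was at 207, 161, 221, 145 and 216 against 122, 122, 91.3, 76.3 and 95.9, with controls at 109, 196, 112, 111 and 122. The control labelled 6_5 lay inside the range of the H2S group. The difference was 0.91 (SE 0.18, adjusted p = 0.0838), and the call of Rgs1 was kept in 4 of the 15 fits without 1 mouse, with adjusted p-values up to 0.287.

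In the list of Nrf2 targets and antioxidant enzymes, 9 of 27 measured genes were higher at an unadjusted p under 0.05 and 0 lower, and the median was 0.11. Gclc, the catalytic subunit of the enzyme that starts glutathione synthesis, was at 0.44 (unadjusted p = 0.00309, adjusted p = 0.396), and Hmox1, heme oxygenase 1, at 0.81 (unadjusted p = 0.0246, adjusted p = 0.729). Hmox1 ranged from 961 to 3293 with H2S and from 524 to 1478 with air, which overlap. Metallothioneins and zinc transporters had 4 of 11 members higher. Slc39a14, which imports zinc and iron, passed the adjusted test with 419, 467, 384, 377 and 448 against 273, 286, 262, 299 and 329, a difference of 0.53 (SE 0.081, adjusted p = 0.0136), and Mt1, a metal-binding metallothionein, was at 0.65 (unadjusted p = 0.00135, adjusted p = 0.275).

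Immediate early transcription factors were the list with the largest share of members higher with H2S. All 25 measured genes had a positive difference, against 9545 of all 19934 genes. Of the 25, 19 were higher at an unadjusted p under 0.05, 1 of them (Atf3) at an adjusted p under 0.05, and the median was 0.41 against -0.0059 over all genes. In 6 of them all H2S-ventilated mice lay above all air-ventilated mice. Myc, a transcription factor of growth, stood at 786, 935, 532, 817 and 966 with H2S and at 530.4, 418, 351, 457 and 528 with air, without overlap, and missed the adjusted threshold at 0.81 (unadjusted p = 0.000178, adjusted p = 0.12). Myc was called in 10 of 29 alternative fits, among them CyberT and both fits with label numbers as a block. Fos, a subunit of AP-1, was at 627, 1208, 604, 604 and 521 against 428, 466, 404, 353 and 423, again without overlap, at 0.72 (unadjusted p = 0.00244, adjusted p = 0.358). The H2S-ventilated mouse labelled 4_8 had the highest Fos value of the 15 mice, and the controls, at 568, 504, 446, 325 and 344, reached into the H2S range. Nr4a1, an orphan nuclear receptor induced by many stimuli, stood at 1282, 2553, 1781, 1354 and 1404 with H2S, 761, 1439.7, 616, 738 and 723 with air and 1550.5, 1294, 1281, 848 and 1162 in controls, at 0.99 (unadjusted p = 0.000537, adjusted p = 0.191) for H2S minus air. For this gene the air-ventilated mouse labelled 11_6 and 2 controls lay within the H2S range, and air minus control was -0.56 (adjusted p = 0.248). The median over the 25 genes was 0.08 for air minus control, with 8 of the 25 below 0, and 0.58 for H2S minus control, with 24 above 0. Klf6, a zinc finger factor, and Jun, a partner of Fos in AP-1, were higher in air-ventilated mice than in controls, by 0.35 (adjusted p = 0.0134) and 0.39 (adjusted p = 0.00945), and did not overlap between air and H2S either, at 0.34 (unadjusted p = 0.000258, adjusted p = 0.166) and 0.21 (unadjusted p = 0.0141, adjusted p = 0.629). Members that did not pass included Btg2 at 0.01 (95% interval -0.20 to 0.22) and Egr3 at 0.05 (95% interval -0.19 to 0.29).

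Feedback inhibitors of MAP kinases, which immediate early programs induce and which end the signal, showed the same direction. Of 15 genes, 8 were higher at an unadjusted p under 0.05 and 0 lower. Dusp16, a phosphatase that acts on JNK and p38, passed the adjusted test with 1515, 1408, 1537, 1367 and 1425 against 1106, 1131, 1099, 1056 and 1129, a difference of 0.39 (SE 0.062, adjusted p = 0.0192) that was below the fold minimum. Of the 15 fits without 1 mouse, Dusp16 kept an adjusted p under 0.05 in 10 and Slc39a14 in 11. Dusp4 was at 0.59 (unadjusted p = 0.000132, adjusted p = 0.101) and Dusp8 at 0.47 (unadjusted p = 0.000281, adjusted p = 0.167), and neither overlapped between the groups. Fam110c, a gene in none of the lists, also passed, at 188, 244, 180.0, 256 and 282 against 128, 136, 134, 132 and 147 and 0.74 (SE 0.11, adjusted p = 0.00702).

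**Figure D2:**
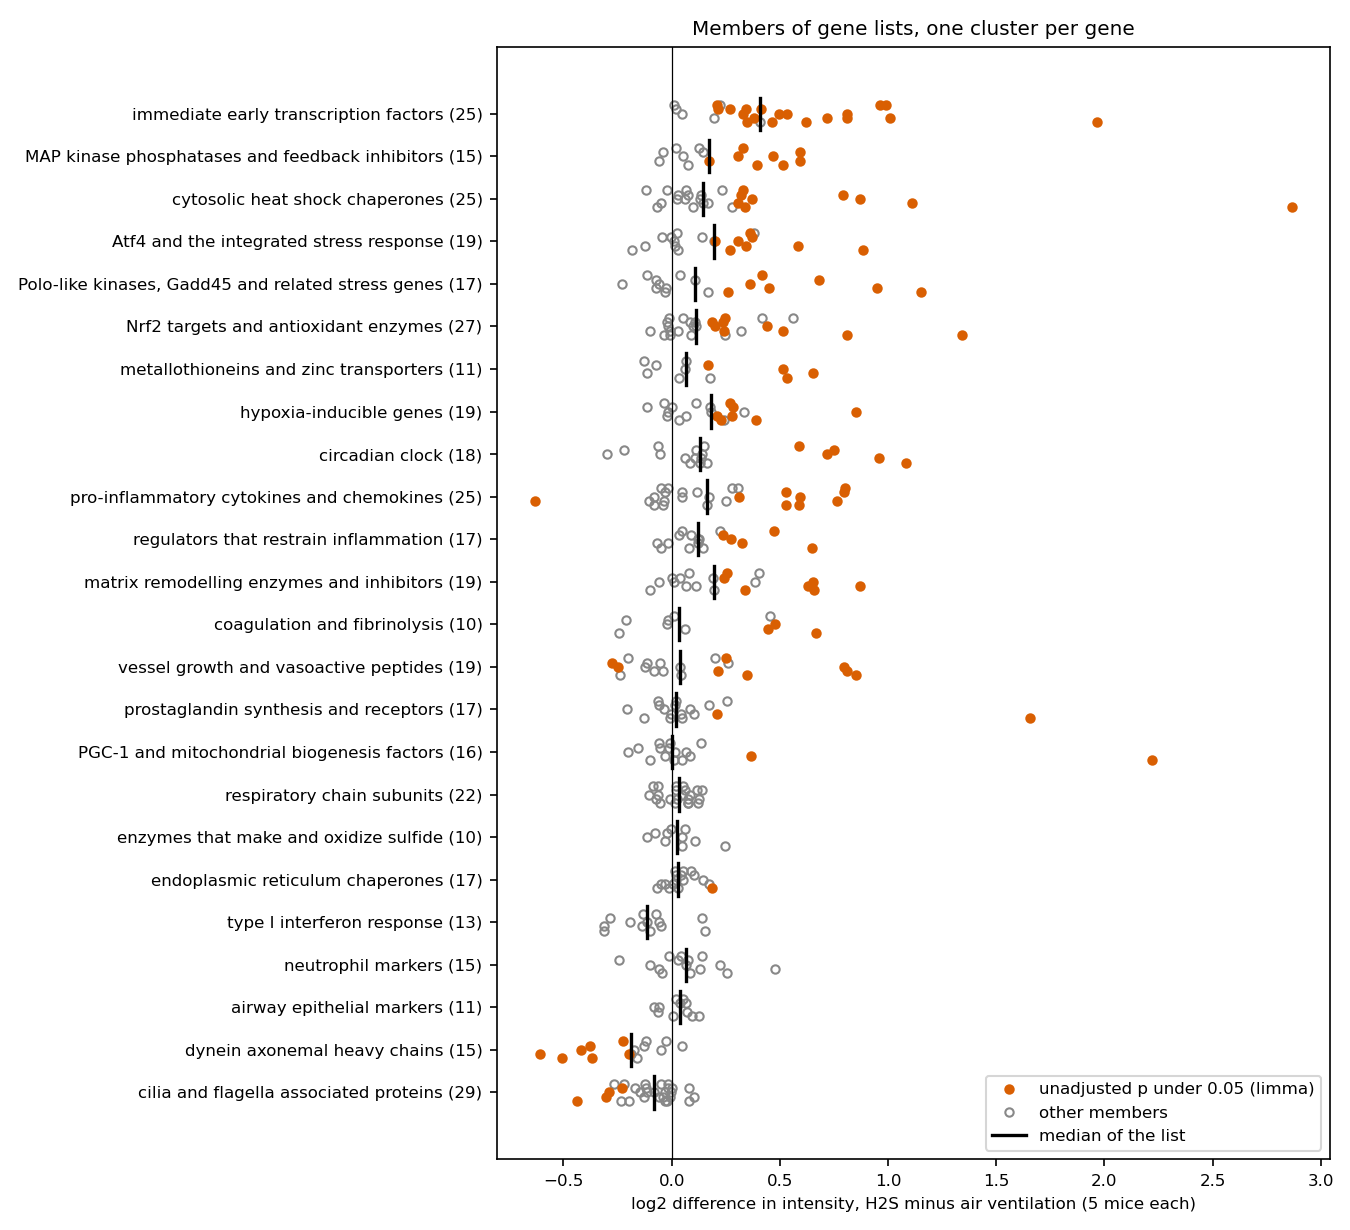
Log2 difference in intensity between H2S and air ventilation (x axis, 5 mice each) for the members of 24 gene lists, with 1 point per gene. Filled points have an unadjusted p under 0.05 in limma, black bars are list medians, and the number of genes measured is in brackets. The immediate early list has its median at 0.41 and no member below 0, the respiratory chain and neutrophil lists have no filled points, and the axonemal dynein list has filled points below 0 only.

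With all mice, no gene in the lists of cytokines and chemokines and of genes that restrain inflammation passed the adjusted test in limma. Ptgs2, described above, is in neither list. Of 25 cytokines and chemokines, 8 were higher and 1 was lower in limma at an unadjusted p under 0.05, and 0 in either direction passed at an adjusted p under 0.05. Lif, a cytokine of the interleukin 6 family, was at 0.59 (unadjusted p = 0.000154, adjusted p = 0.112) and Il33, an alarmin of barrier cells, at 0.59 (unadjusted p = 0.00451, adjusted p = 0.438). Il6 was at 0.80 (unadjusted p = 0.0125, adjusted p = 0.611), with intensities of 17.3 to 32.7 with H2S and 8 to 22.7 with air that were far under the array medians. Controls spanned 10.1 to 24.3 and overlapped both groups. The member that was lower was Ccl20, a chemokine for dendritic cells and lymphocytes, at 143, 121, 145, 199 and 182 with H2S against 313, 139, 294, 250.4 and 254 with air and -0.63 (unadjusted p = 0.00384, adjusted p = 0.419). The air-ventilated mouse labelled 11_6 lay within the H2S range of Ccl20 and the other 4 above it, while controls were at 149, 156, 134, 177 and 159, all within the H2S range. Without the mouse labelled 11_6 Ccl20 was called, at -0.83 with an adjusted p of 0.0236. Tnf differed by -0.11 (95% interval -0.47 to 0.26) and Il1b by -0.08 (95% interval -0.61 to 0.45). Among 17 genes that restrain inflammation 5 were higher and 0 lower, led by Socs3, an inhibitor of cytokine receptor signalling that the study singled out. Socs3 stood at 759, 1122, 682, 679 and 697 with H2S and 417, 768, 371, 447 and 549 with air and did not pass at 0.65 (SE 0.18, adjusted p = 0.37). The air-ventilated mouse labelled 11_6 exceeded 4 of the 5 H2S-ventilated mice, and without it the difference of Socs3 was 0.81 with an adjusted p of 0.0645 and was called. With CyberT, Il6 and Ccl3, a chemokine for monocytes, were called as higher, Il6 without an adjusted p under 0.05, and Socs3 had an adjusted p of 0.0165. In the same CyberT test Ccl20 was lower at an adjusted p under 0.05 and was not called.

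Neutrophil markers did not pass between the ventilated groups. Of 15 markers, 0 were higher and 0 lower in limma at an unadjusted p under 0.05, and the median difference was 0.07. Their summed intensity was 12460 to 17940 with air, 11240 to 20980 with H2S and 7451 to 13260 in controls, so that the ranges of all groups overlapped. S100a9, an abundant calcium-binding protein of neutrophils, differed by 0.14 (95% interval -0.36 to 0.64) and the chemokine receptor Cxcr2 by 0.08 (95% interval -0.36 to 0.51). Mmp8, the neutrophil collagenase, was at 3209, 2164, 1915, 2497 and 3484 with H2S, 2406, 3111, 2195, 1748 and 3206 with air and 398, 778, 469, 1059 and 895 in controls. Both ventilated groups were above the controls and overlapped each other, with 1.88 (adjusted p = 0.00175) for air minus control, 1.94 (adjusted p = 0.000452) for H2S minus control and 0.07 between them (95% interval -0.48 to 0.61). With 5 mice per group, a difference of any size inside these intervals is not excluded. In lavage fluid the study counted neutrophils directly and reported that their rise under air ventilation was abolished with H2S. The arrays measure RNA of the lobe and not the cells of that fluid.

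Enzymes and inhibitors of matrix remodelling had 7 of 19 members higher at an unadjusted p under 0.05 and 0 lower. Adamts4, a protease of aggrecan, was at 0.66 (unadjusted p = 0.000263, adjusted p = 0.166), Has1, a hyaluronan synthase, at 0.87 (unadjusted p = 0.000404, adjusted p = 0.176) and the protease inhibitor gene Timp1 at 0.65 (unadjusted p = 0.000686, adjusted p = 0.212). Serpina3n, an acute phase protease inhibitor and the mouse gene chosen here for the Serpina3 that the study singled out, stood at 7950.2, 7388, 7339.8, 5987 and 6637 with H2S, 6269, 6389.8, 6337, 4716 and 5918 with air and 4022, 3655, 3784, 4339 and 3824 in controls. Ventilated mice were above controls in either gas, and the direct difference did not pass at 0.25 (SE 0.097, adjusted p = 0.671). F3, tissue factor, which starts coagulation, was at 3730.3, 4235, 3561, 3109 and 4651 against 2856, 2525, 2117, 1914 and 2752 without overlap and just missed the adjusted threshold at 0.67 (unadjusted p = 4.79e-05, adjusted p = 0.0542), with a fold of 1.59. Vasoactive and vessel growth genes split, 6 of 19 being higher and 2 lower. Edn1, the vasoconstrictor endothelin 1, was at 0.79 (unadjusted p = 0.00581, adjusted p = 0.471) and Apold1, an early response gene of endothelium, at 0.85 (unadjusted p = 0.000352, adjusted p = 0.167), whereas Kdr, the main receptor of vascular endothelial growth factor, was at -0.25 (unadjusted p = 0.0442, adjusted p = 0.855).

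Genes of hypoxia and of the circadian clock were also counted. Among 19 hypoxia-inducible genes 7 were higher and 0 lower, with the glucose transporter Slc2a1 at 0.39 (unadjusted p = 0.00231, adjusted p = 0.356) and Ankrd37 at 0.85 (unadjusted p = 0.00696, adjusted p = 0.503). Of 18 clock genes, 5 were higher and 0 lower. They were Noct, the repressors Bhlhe40 at 0.96 (unadjusted p = 0.000172, adjusted p = 0.119) and Bhlhe41 at 0.75 (unadjusted p = 0.00599, adjusted p = 0.477), the repressor Nfil3 at 0.72 (unadjusted p = 0.000293, adjusted p = 0.167), and Ciart at 0.59 (unadjusted p = 0.0491, adjusted p = 0.876). The core clock genes Arntl at 0.11 and Per2 at 0.06 did not pass. Targets of the aryl hydrocarbon receptor had 3 of 7 members higher, of which Cyp1a1, an enzyme that oxidizes aromatic compounds, was at 496, 609, 513, 147 and 111 with H2S against 141, 290.0, 151, 127 and 109 with air and 0.98 (unadjusted p = 0.0399, adjusted p = 0.833). For Cyp1a1 only the 3 H2S-ventilated mice numbered 1 to 12 were above the air group, and the other two lay inside it. Of 13 interferon response genes 0 passed in limma at an unadjusted p under 0.05 in either direction, with a median of -0.12, and their summed intensity ranged from 4919 to 11920 with air and 5409 to 11640 with H2S, while 1 of the 14 glucocorticoid-induced genes was higher, Errfi1 at 0.17 (unadjusted p = 0.0241, adjusted p = 0.726).

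Some genes of the motile cilium, the beating hair of airway cells that dynein motors bend, were among the genes with the smallest p that were lower with H2S. The 2 clusters that were lower at an adjusted p under 0.05 were those of Fam216b, at 313, 418, 286, 357 and 419.6 with H2S against 572, 521, 559.7, 530.0 and 644 with air and -0.67 (SE 0.11, adjusted p = 0.0192), and of the kinase gene Map3k19, at 111, 123, 105, 152 and 119 against 194, 200.2, 192, 181 and 244 and -0.73 (SE 0.13, adjusted p = 0.0356). In both genes all 5 H2S-ventilated mice lay below all 5 air-ventilated mice, as in 0.565% of all clusters, and neither is in the families counted below nor reached the fold minimum of 1.7. Fam216b stayed under an adjusted p of 0.05 in 11 and Map3k19 in 3 of the 15 fits without 1 mouse, and neither did with the 10 ventilated arrays alone, at 0.107 and 0.0627. The 8 brighter genes lower with the smallest p included Fam216b but not Map3k19, whose mean signal was too low for this group. The others included Cfap44, given below, Rgs22 at -0.54 (SE 0.10, adjusted p = 0.0616) and Efcab1, which binds to outer dynein arms, at -0.47 (SE 0.11, adjusted p = 0.185). The rest were the RNA helicase gene Ddx54 at -0.51 (SE 0.12, adjusted p = 0.193) and 3 axonemal dynein heavy chains, the motors themselves. Dnah5 stood at 202, 258, 225, 249 and 252 with H2S and 311, 328, 320.5, 344 and 378 with air, without overlap, at -0.51 (unadjusted p = 0.000345, adjusted p = 0.167). Dnah12 was at 314, 284, 354, 494 and 414 against 499.8, 497, 533, 639 and 631 and Dnah3, by 1 of its clusters, at 297, 346, 332, 434 and 389 against 531, 445, 475, 535 and 578. Their differences were -0.61 (SE 0.14, adjusted p = 0.177) and -0.52 (SE 0.11, adjusted p = 0.167). With the 2 sets of label numbers as a block the number of clusters lower at an adjusted p under 0.05 went from 2 to 10, and Dnah12 (adjusted p = 0.00486) and Rgs22 (adjusted p = 0.0351) passed in limma. With the ventilated arrays alone Dnah12 had an adjusted p of 0.404 and Rgs22 one of 0.107. For Dnah5 and Dnah12 the mean of the controls was close to that of air-ventilated mice, with values of air minus control of -0.03 (adjusted p = 0.97) and 0.03 (adjusted p = 0.981). Single controls could be lower, as the control labelled 6_5 had 369.41 for Cfap44, within the H2S range and below every air-ventilated mouse.

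Because this pattern was seen in the values first, families were then taken whole by their symbols, and their counts are a description. A negative difference was found in 10389 of all 19934 genes. Of 15 axonemal dynein heavy chains, 0 were higher and 7 lower at an unadjusted p under 0.05, 14 had a negative difference, 5 had all H2S-ventilated mice below all air-ventilated mice, and the median was -0.19 on the log2 scale. For Dnah3 the brightest cluster, which stands for the gene in this count, was at -0.38. The summed intensity of the 15 genes was 2779 to 3449 with H2S, 3708 to 4383 with air and 3525 to 4668 in controls, and the first range lies below both others. Of 29 Cfap genes, which encode further proteins of cilia and flagella, 4 were lower and 25 had a negative difference, with Cfap44 at 281, 302, 291, 361 and 372 against 437, 400.4, 397, 479.6 and 453 and -0.44 (unadjusted p = 0.000518, adjusted p = 0.188), which became an adjusted p of 0.0309 with the sets of label numbers as a block, and Cfap43 at -0.30 (unadjusted p = 0.0013, adjusted p = 0.273). Among 5 radial spoke heads 1 was lower, Rsph4a at -0.27 (unadjusted p = 0.0309, adjusted p = 0.766), and of 5 tektins and 2 other axonemal dynein chains 0 passed in limma at an unadjusted p under 0.05. Over all 56 genes of the 5 families 12 were lower and 0 higher, with a median of -0.12. Their summed intensity was 12800 to 15460 with H2S, 15180 to 16500 with air and 13920 to 18790 in controls. That of the 29 Cfap genes was 7177 to 8651 with H2S and 8235 to 8933 with air. Unlike the dynein heavy chains, these and the other families overlapped between H2S and air. The mean log2 intensity of the 56 genes was 7.64 in the control labelled 6_5, below every air-ventilated mouse and within the H2S range of 7.55 to 7.78. In bulk tissue, fewer ciliated cells and less RNA per cell cannot be told apart. Foxj1, the transcription factor that makes cells ciliated, was at 373, 519.7, 384, 392 and 437 with H2S and 432, 419, 383, 394 and 454 with air, a difference of 0.01 (95% interval -0.25 to 0.27), and the ciliated cell markers Tppp3 and Dynlrb2 were at -0.06 (95% interval -0.31 to 0.19) and -0.08 (95% interval -0.32 to 0.16).

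**Figure D3:**
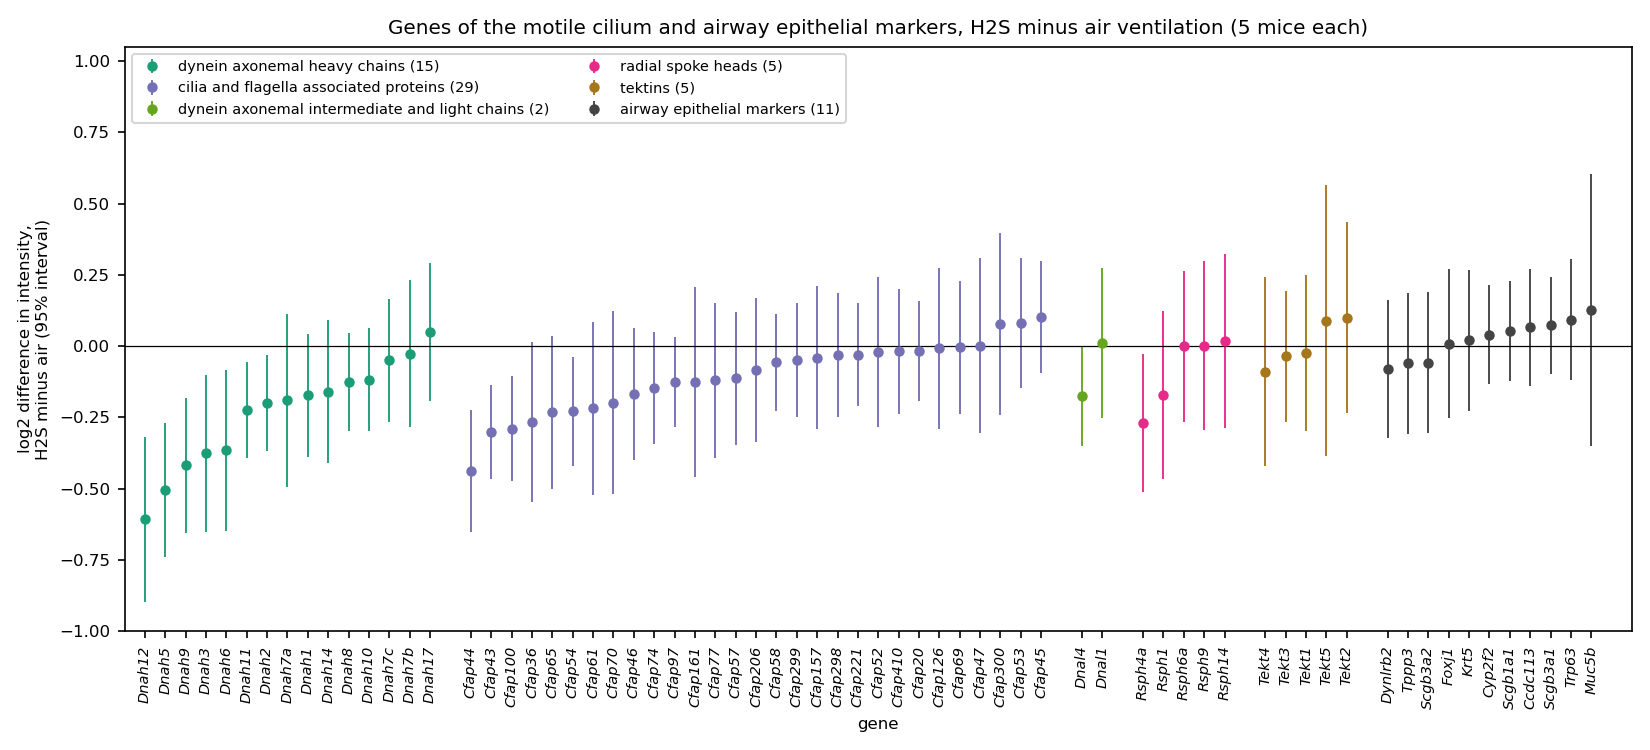
Log2 difference in intensity between H2S and air ventilation with its 95% interval (y axis) for genes of 5 families of the motile cilium and for 11 airway epithelial markers, sorted within each family (x axis, 1 gene each). Dnah12 at -0.61 and Dnah5 at -0.51 are the lowest, and the intervals of the airway markers, Foxj1 included, all cross 0.

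Few markers of other lung cells passed. Of 11 airway epithelial markers 0 were higher and 0 lower in limma at an unadjusted p under 0.05, and their summed intensity was 35800 to 40780 with air and 36420 to 41170 with H2S. Scgb1a1, the secretory protein of club cells, differed by 0.05 (95% interval -0.12 to 0.23). None of 10 type II cell markers passed in limma at an unadjusted p under 0.05 in either direction, with summed intensities of 73380 to 76900 and 73950 to 77680. Type I cell markers split, with Aqp5, a water channel, higher at 2623, 2961, 2434, 2276 and 2269.9 with H2S against 1736, 1935, 1521, 2002 and 2094 with air, without overlap, and 0.44 (unadjusted p = 0.000415, adjusted p = 0.176), and with Pdpn at -0.31 (unadjusted p = 0.0408, adjusted p = 0.833) and Rtkn2 at -0.30 (unadjusted p = 0.0335, adjusted p = 0.792) lower. Alveolar macrophage markers had 3 of 9 members higher, Fabp1 at 0.35 (unadjusted p = 0.00617, adjusted p = 0.486) with the smallest p, then Mrc1 and the scavenger receptor gene Marco, with summed intensities of 9605 to 10440 with air and 10180 to 11700 with H2S that overlap. Endothelial markers had 1 of 12 lower, the receptor component gene Ramp2 at -0.27 (unadjusted p = 0.0206, adjusted p = 0.691). Mesenchymal markers had 1 of 13 higher, the growth factor receptor gene Pdgfra at 0.17 (unadjusted p = 0.0423, adjusted p = 0.842), and B cell markers 1 of 9 lower, the kinase gene Blk at -0.24 (unadjusted p = 0.0411, adjusted p = 0.834). Of 12 T and NK cell markers 0 passed in limma at an unadjusted p under 0.05. Erythroid and platelet markers had 1 of 6 higher, the erythrocyte membrane protein gene Slc4a1 at 0.63 (unadjusted p = 0.0125, adjusted p = 0.611), with summed intensities of 3711 to 4515 with air and 3706 to 6151 with H2S. Their part in the differences above was not tested.

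How much the called genes depended on the running number in the labels was examined within each set of mice. Hspa1a differed by 2.45 in the mice numbered 1 to 12 and by 3.49 in those numbered 20 to 28, Ptgs2 by 1.30 and 2.18, and Osgin1 by 1.02 and 1.82. The order was the opposite for Ppargc1a, with 2.54 and 1.74 at its brighter cluster, and for Alpl, with 1.02 and 0.46. Cyp1a1 was at 1.55 and 0.12 and Hsph1 at 0.49 and 1.43. A limma test, added after the values were seen, of whether the difference itself changed between the sets passed for 0 of 21780 clusters at an adjusted p under 0.05 and for 386 (1.77%) at an unadjusted p under 0.05, among them the clusters of Ppargc1a, Cyp1a1, Hsph1, Alpl, Ptgs2, Hspa1a and Osgin1. They also included Aqp5, at 0.63 and 0.15, Timp1, at 0.90 and 0.28, and Plat, tissue plasminogen activator, at 0.69 and 0.16. With fewer mice, 9 clusters were called in the mice numbered 1 to 12 and 1, Hspa1a, in those numbered 20 to 28.

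**Figure D4:**
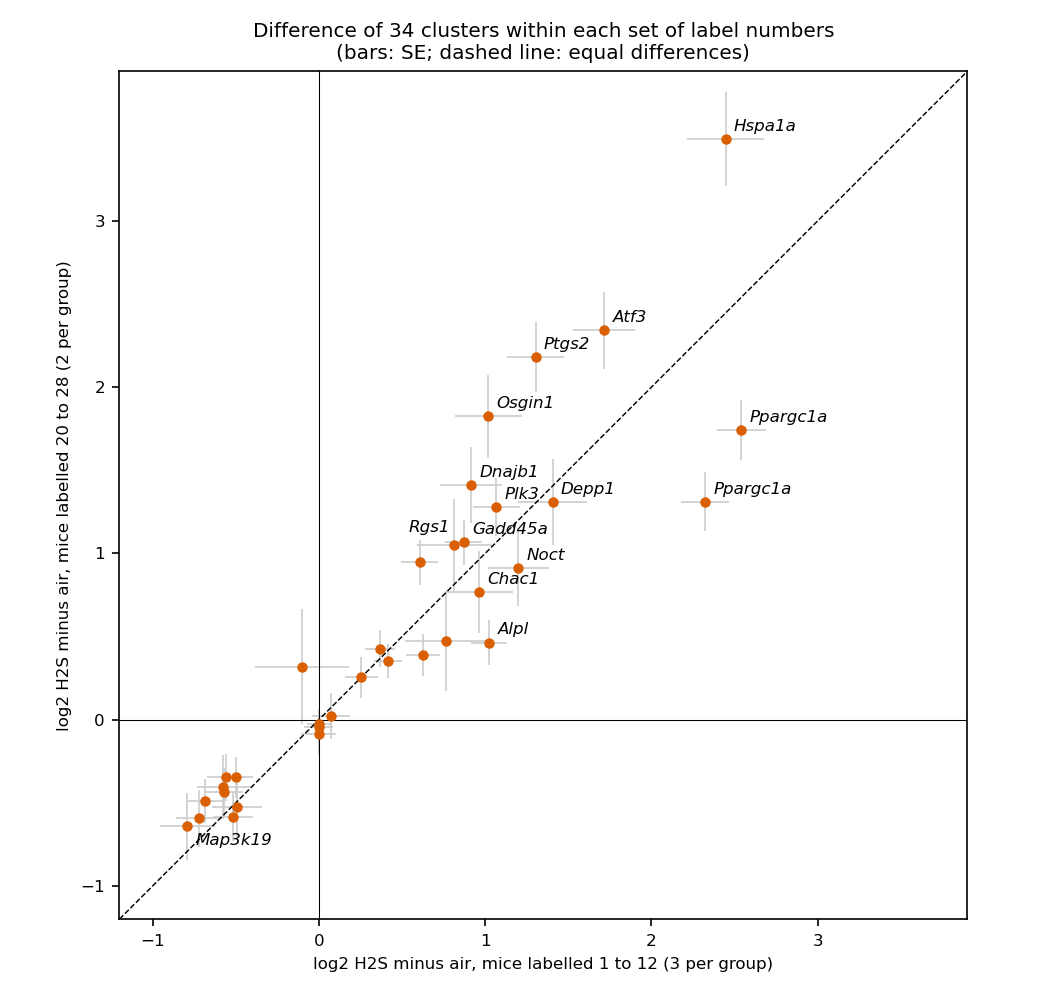
Log2 difference between H2S and air ventilation in the mice numbered 20 to 28 (y axis, 2 per group) against that in the mice numbered 1 to 12 (x axis, 3 per group) for 34 clusters, namely those called or at an adjusted p under 0.05, the 8 lower genes, genes the study singled out and tissue markers, with SE as bars. Hspa1a, Atf3, Ptgs2 and Osgin1 lie above the dashed line of equal differences and Ppargc1a and Alpl below it.

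The differences of the called genes from control are given side by side, since these comparisons share mice. Ppargc1a was at 0.11 (adjusted p = 0.908) for air minus control and 2.33 (adjusted p = 4.67e-06) for H2S minus control at its brighter cluster, and Alpl at 0.03 (adjusted p = 0.981) and 0.83 (adjusted p = 0.00232). Hspa1a stood at 0.35 (adjusted p = 0.815) and 3.21 (adjusted p = 0.000214), Ptgs2 at 0.31 (adjusted p = 0.53) and 1.96 (adjusted p = 3.59e-05). For Osgin1 the values were 0.67 (adjusted p = 0.189) and 2.01 (adjusted p = 0.000259) and for Depp1 0.45 (adjusted p = 0.2) and 1.82 (adjusted p = 3.59e-05). Rgs1 had a negative value with air, -0.34 (adjusted p = 0.437), and 0.57 (adjusted p = 0.0622) with H2S. Among the genes called between H2S and air, Plk3 and Gadd45a were the ones that also passed an adjusted p under 0.05 for air minus control.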

How the data were processed

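RNA of lung tissue from 15 mice was measured, and the arrays of the 10 ventilated mice were compared. The deposited values are linear intensities, 1 per transcript cluster and array, which the authors made from the scanner signals by GC-based background correction, quantile normalization and RMA, so that depth in reads does not apply and the number of mice limits the precision. All columns of the deposited table were used (0 left unused). Clusters carry 1 gene symbol (21780), several (1617) or none (4964) in the annotation table, and only the first were counted and named. Log2 intensities of all 15 arrays entered 1 limma fit without covariates (limma 3.58.1, R 4.3.3), with p-values adjusted over 28361 clusters by the Benjamini-Hochberg method. On simulated data of this size limma recovered 90% of 100 clusters changed by a fold of 2 and 98% of 100 changed by a fold of 3, with 2 false calls, and CyberT recovered 92% and 99% with 23 false calls. The simulated noise was normal, independent between mice and clusters, and took each cluster's residual spread as its true spread. It held no label sets, so that these counts may not carry over to the real arrays. Gene lists (37) use the brightest cluster of each gene, and their counts are descriptions.

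The comparison, the gene lists and the alternatives were chosen with earlier results of these data known, and the 5 ciliary families and the test between the label sets were added after the values were seen. Named genes are those called or at an adjusted p under 0.05, the 8 brighter genes lower with the smallest p, up to 3 members per list with the smallest p, genes the study singled out (Serpina3n for its Serpina3) and tissue markers. The 123 list members at an unadjusted p under 0.05 outside the other parts of this rule were recomputed under every alternative, those that did not pass were not. Further members given as examples were chosen after their values were seen. Alternatives were CyberT, the ventilated arrays alone, a variance trend, robust and weighted fits, another normalization or centring, no dim clusters, group medians, 1 cluster per gene, blocks for label numbers, each label set alone and leaving out each mouse. The label numbers were checked for pairing in 4 pairs of air-ventilated and H2S-ventilated mice from the same run of numbers, such as 26 and 28. Their deviations from group means correlated at 0.0719 to 0.358, with a mean of 0.243 against -0.0453 for different runs. With the label sets as a covariate in limma, 1775 clusters differed between the sets at an adjusted p under 0.05. The main fit used neither pairs nor sets, and both entered as blocks in the alternatives. Promoter windows were read from RefSeq (GRCm38.p6), and figures were drawn with matplotlib 3.10.9 in Python 3.11.15.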

Additional observations from a re-analysis of the deposited data

Results flagged for a closer look

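Among 90 groups of 5 values of the 30 clusters that were called, at an adjusted p under 0.05, among the 8 lower genes or singled out by the study, 8 held a mouse whose distance from the nearest other mouse took up more of the group's range than Dixon's 95% limit, and chance flags about 1 in 20 groups. Of these, 3 lay in ventilated groups of genes discussed above. Socs3 stood at 1122.02 in the H2S-ventilated mouse labelled 4_8, where the other 4 mice of that group had a median of 689.3. Pparg was at 846.98 in the H2S-ventilated mouse labelled 9_12, against 935.8. Serpina3n was at 4715.92 in the air-ventilated mouse labelled 34_22, against 6303. The other 5 were controls. The control labelled 6_5 had 195.75 for Rgs1 against a median of 111.3 in the other controls and 369.41 for Cfap44 against 477.1. The control labelled 7_9 had 601.64 for Pparg against 692.3 and 275.55 for Socs3 against 378.2. The control labelled 12_21 had 130.91 for Fam110c against 121.3.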

How the results depend on the processing

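The number of clusters called, 14, was 40 with CyberT, 9 in the mice numbered 1 to 12 alone and 1 in those numbered 20 to 28 alone. It lay between 10 and 31 when 1 mouse was left out. On the simulated data, whose noise held no label sets, CyberT made 23 false calls against 2 with limma. The number at an adjusted p under 0.05, 17, was 121 with CyberT, 9 with the ventilated arrays alone, 55 with array weights, 28 without dim clusters, 33 with the sets of label numbers as a block, 7 in the mice numbered 1 to 12 and 0 in those numbered 20 to 28 (limma, with 848 at an unadjusted p under 0.05), and lay between 11 and 36 when 1 mouse was left out. With runs of adjoining label numbers as a replicate block, which the labels do not state to be a pairing, 20 clusters were called, 12 of them among the 14, and 27 were at an adjusted p under 0.05, while Rgs1 and Chac1 were no longer called. Of the 13 called genes, 9 were called without any 1 mouse. A value counted as past the threshold if the cluster was called or had an adjusted p under 0.05. Of 983 values under alternatives of the 34 clusters named outside the gene lists, 845 kept their direction and side of this threshold. A further 106 lost and 20 gained it, and 12 changed sign. These were values of Mmp8, -0.102 in the mice numbered 1 to 12 and -0.0589 to 0.174 without 1 mouse, of Sftpc, 0.0112 between group medians, 0.00281 in the mice numbered 1 to 12 and -0.022 to 0.00948 without 1 mouse, of Ager, -0.0815 to 0.0135 without 1 mouse, and of Pecam1, 0.0193 between group medians and -0.0372 to 0.00838 without 1 mouse, all in genes that did not pass. Of 3566 values of 123 list members at an unadjusted p under 0.05, 102 in 38 genes gained a threshold and 1 changed sign, Nos3 at -0.0539 in the mice numbered 20 to 28. Of 258 list medians, 6 moved by more than the spread between mice, all in the fits of 1 label set alone. The cause of these shifts was not tested. The number of arrays limits what could be seen, since the median interval reached 0.221 on either side on the log2 scale.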

Other observations

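Gene groups not described above gave few members past an unadjusted p under 0.05. Of 10 genes of coagulation and fibrinolysis 3 were higher and 0 lower, F3 first, then Plaur, the urokinase receptor gene that focuses plasmin formation on the cell surface, at 0.45 (unadjusted p = 0.00202, adjusted p = 0.336) and Plat, tissue plasminogen activator, at 0.48 (unadjusted p = 0.0097, adjusted p = 0.579). Of 18 Bcl2 family members and inhibitors of apoptosis 1 was higher, Bbc3, which promotes apoptosis, at 0.26 (unadjusted p = 0.0164, adjusted p = 0.656), and 0 were lower, with a median of 0.0012. Of 2 cold-inducible RNA-binding proteins 1 was lower, Cirbp at -0.29 (unadjusted p = 0.0377, adjusted p = 0.823). Among 11 monocyte markers 1 was higher, Nr4a1, which is also in the immediate early list, and their summed intensity was 11950 to 12900 with air and 12810 to 14480 with H2S.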
